A study of Mus musculus with 48 samples.

Results

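Gene expression was compared between the ileum, the last part of the small intestine, and the duodenum, the first part, in mice of postnatal day 6. The comparison rests on 4 samples of the 48 in the series, the ileum samples numbered 1 and 2 and the duodenum samples numbered 1 and 2. These were taken by their labels, and at other ages all samples but those of day 4 entered the fit. All were C57Bl/6J animals, untreated and drawn from both sexes, kept with the dam and described in the labels as held in standard germ-free housing. Each sample was total RNA from the whole thickness of a piece 2 cm long, sequenced on an Illumina NovaSeq instrument. The series covers both regions at 8 ages from birth to week 4, and its day 2 and day 8 samples, 3 per region and age, serve here for comparison. The labels do not say whether a duodenum and an ileum sample came from the same mouse, nor that the numbered samples are separate animals. The p-values thus measure only a spread between samples of a group, which may be technical. That spread is estimated jointly over the 40 samples fitted, not from the 4 of day 6 alone.

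At this age the mouse lives on milk. The duodenum receives the outflow of the stomach, bile and pancreatic juice, and takes up iron, calcium and sugars. The ileum of the suckling mouse holds vacuolated enterocytes that take up whole milk proteins by endocytosis and degrade them in large lysosomes, and it later becomes the site where bile acids are reclaimed. Transcription factors of the GATA, ONECUT, CDX and HOX families mark position along the gut.

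Sample number 3 of each region at day 6 was set aside. Pdx1, which encodes a homeobox factor of pancreas and upper gut, stood at 10.9 and 11.8 CPM (counts scaled to library size) in duodenum samples 1 and 2 but at 0.114 CPM in the sample labelled duodenum number 3. It stood at 0.0861 and 0.423 CPM in ileum samples 1 and 2 and at 14.1 CPM in the sample labelled ileum number 3. Fabp6, which encodes the ileal bile acid binding protein, was at 0 in duodenum samples 1 and 2 and at 1.97 CPM in the library labelled duodenum number 3, against 3.57 and 2.28 CPM in ileum samples 1 and 2 and 0 in the library labelled ileum number 3. Across genes, the library labelled duodenum number 3 had a mean Spearman correlation of 0.934 with the other duodenum samples of its age and 0.989 with the ileum samples, and the library labelled ileum number 3 had 0.934 with its own label and 0.982 with the duodenum. Both libraries thus go against their labels, and neither has a column in the authors' normalized tables. Since these levels decided which samples were used, Pdx1 and Fabp6 are given without a test. With all 48 samples under their labels, no gene was called between the regions at day 6, and 884 genes had an unadjusted p under 0.05.

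**Figure D1:**
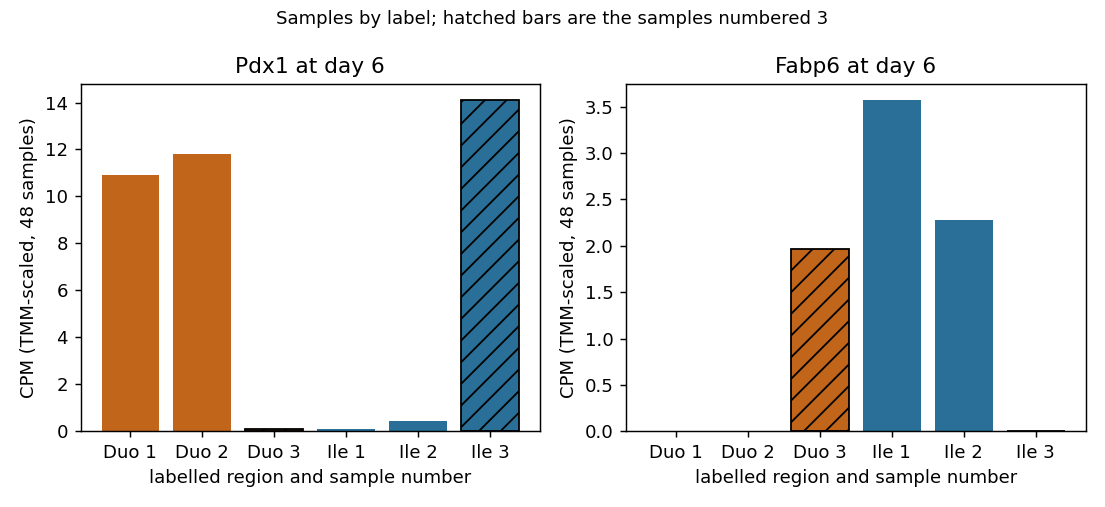
Pdx1 and Fabp6 in the 6 samples labelled day 6, as CPM after scaling over 48 samples, by labelled region (Duo, Ile) and sample number. The hatched bars, the samples numbered 3, show Pdx1 at 14.1 CPM under the ileum label and Fabp6 at 1.97 CPM under the duodenum label, the reverse of samples 1 and 2.

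Total counts of the 4 samples used were 37087364 and 40755872 in the duodenum and 19123074 and 27088258 in the ileum. Mitochondrial transcripts took 26.1% and 24.4% of duodenal counts and 21.2% and 22% of ileal counts. All 4 samples had Xist, the RNA that coats the silenced X chromosome in females, at 1227 to 1771 CPM, while the Y-linked genes Ddx3y and Eif2s3y were at 0, Kdm5d was at 0.379 to 0.551 CPM and Uty at 19.8 to 64 CPM. These levels do not settle the sex of the animals. Markers of intestinal epithelium were abundant in both regions, with Epcam, a cell adhesion gene of epithelium, at 1182 and 1359 CPM in the duodenum and 992 and 1202 CPM in the ileum. Below, levels are CPM with sample 1 named before sample 2, and differences are log2 of ileum over duodenum with their standard error (SE), so that positive values mean higher in the ileum.

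Between the regions at day 6, 9376 of 21617 tested genes (43.4%) were called at an adjusted p under 0.05 by edgeR's quasi-likelihood test. Of these, 4197 were higher in the ileum, 19.4% of tested genes, and 5179 were higher in the duodenum, 24.0%. The balance depends on scaling and filter: it was 4718 ileal against 4423 duodenal with RLE scaling, 4813 against 4592 with DESeq2 and 4794 against 4046 with a mean count of at least 10. The median log2 difference over all tested genes was -0.06. Differences over 2-fold made up 59.7% of the calls, with 3131 genes on the ileal and 2467 on the duodenal side. The regions did not overlap in CPM at 73.4% of tested genes, and 12 called genes had overlapping values. In whole tissue, fewer cells of a type and less RNA per cell cannot be told apart.

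**Figure D2:**
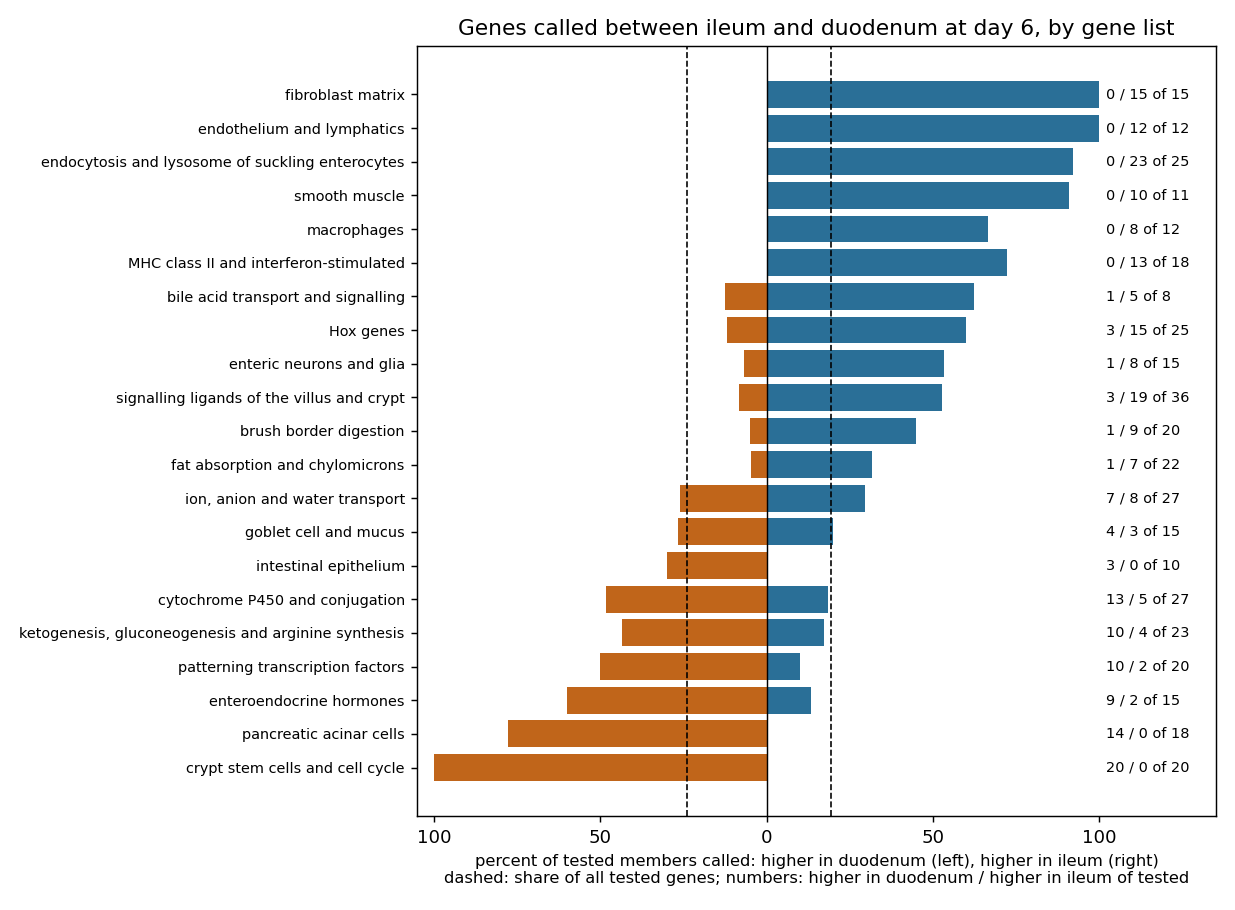
Share of the tested members of 21 gene lists called between the regions at day 6, with bars to the right for members higher in the ileum and to the left for members higher in the duodenum. Pdx1 and Fabp6 are not counted. The dashed lines mark the shares over all tested genes, 19.4% and 24.0%. The fibroblast matrix, endothelium and endocytosis lists lie at the ileal end and the crypt and cell cycle list at the duodenal end.

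The genes with the largest ileal excess, among those with a mean of at least 10 CPM in the higher region, held genes of fibrinogen, lipids, endocytosis and stroma. Rarres1, a retinoic acid responsive gene, stood at 0 and 0.0256 CPM in the duodenum and 9.4 and 16.7 CPM in the ileum, a 1030-fold ratio of counts with a 95% counting interval from 185 to 40900, which covers counting error only. Fgb and Fga encode chains of fibrinogen and are best known from liver. Fgb measured 0.0266 and 0 CPM in the duodenum and 9.65 and 13.4 CPM in the ileum, with 1 duodenal and 641 ileal counts. Fga measured 0.0533 and 0.308 CPM in the duodenum and 13.7 and 23.1 CPM in the ileum (log2 6.63 ± 0.54, adjusted p = 7.49e-10). Both were near 0 in either duodenum sample. Scd2, a fatty acid desaturase, stood at 2.85 and 3.98 CPM in the duodenum and 179 and 297 CPM in the ileum (log2 6.12 ± 0.63, adjusted p = 3.37e-08). Abca13, a lipid transporter of the ABC family, stood at 0.24 and 0.462 CPM in the duodenum and 12.5 and 17.4 CPM in the ileum (log2 5.40 ± 0.43, adjusted p = 1.74e-10). The calcium-binding annexin gene Anxa8 and Bcl2l15, of the BCL2 family, had log2 differences of 6.32 and 5.49. Tnc, the matrix glycoprotein tenascin C, and Fendrr, a long noncoding RNA of mesenchyme, had 5.48 and 6.04. With either duodenum sample left out the difference ranged from 5.89 to 8.32 for Fga, from 5.62 to 7.79 for Anxa8 and from 4.74 to 6.91 for Tnc, and each stayed called. Fndc1, a fibronectin domain gene, was at 0.266 and 0.0769 CPM in the duodenum and 22.6 and 1.07 CPM in the ileum, so that its excess lay mostly in ileum sample 1, and without that sample it was no longer called (adjusted p = 0.138). Rpl36a-ps2, a ribosomal protein pseudogene that can share reads with its parent, had 608 ileal and no duodenal counts, at least 278-fold higher against a floor of 3 counts over both duodenum samples. Lrp2 completes the 12 and is described with endocytosis.

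The largest duodenal excesses were in genes of pancreatic acinar cells and of stomach-type glands. Cpa1, a pancreatic carboxypeptidase, had 893 duodenal and no ileal counts, which makes it at least 213-fold higher there against the same floor. The trypsinogen gene Prss2 and 2210010C04Rik, of the trypsin family, had 0 ileal counts as well, with bounds of at least 186-fold and 190-fold. Cel, which encodes bile salt-stimulated lipase, had 3294 counts in the duodenum and 1 in the ileum, a 2350-fold ratio with a 95% counting interval from 421 to 92800. Cpb1, another pancreatic carboxypeptidase, stood at 24.7 and 14.3 CPM in the duodenum and 0.337 and 0 CPM in the ileum. The amylase genes Amy2a2, Amy2a3 and Amy2a4 had the same values, 20.8 and 9.41 CPM in the duodenum and 0 and 0.0324 CPM in the ileum, and as near-identical copies they cannot be counted separately with confidence. With 1 ileum sample left out, calls were lost for Cpa1 (adjusted p 0.0678 and 0.0781), Prss2 (0.073 and 0.0837), 2210010C04Rik (0.118 and 0.132) and the amylases (0.124 and 0.123), and without ileum sample 2 for Cel (0.0554) and Cpb1 (0.101). Without duodenum sample 1, 2210010C04Rik (0.0599) and the amylases (0.0585) were not called, nor was 2210010C04Rik with no filter (0.0529). Reg1, a secreted lectin, stood at 29.1 and 34.5 CPM in the duodenum and 0.0843 and 0.0648 CPM in the ileum. Sfrp5, a secreted inhibitor of WNT signalling, stood at 20.3 and 18.9 CPM in the duodenum and 0.211 and 0.0648 CPM in the ileum (log2 -7.20 ± 0.63, adjusted p = 1.44e-09) and kept its call in every alternative but the fit of all 48 samples. Pgc, which encodes a pepsinogen, and Tff2, a trefoil peptide of gastric and Brunner glands, are described with the stomach markers.

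RefSeq promoter windows on GRCm38.p6, from 250 bases before to 50 after the gene start, were found for 10 of the 12 ileal and 11 of the 12 duodenal genes and searched for motifs of gut transcription factors on both strands. The GATA motif AGATAA occurred for 1 of 10 ileal and 3 of 11 duodenal genes, against 11.2% of the 32851 promoters in the table. A gene was counted if any of its promoters held the motif, whereas the shares of all promoters count each promoter alone. The CDX motif TTTATGG occurred in 0 and 1, against 2.75% of all promoters. The HNF4 motif CAAAGTCCA, the HNF1 palindrome and the inverted repeat of the bile acid receptor occurred in none of them. The motifs do not overlap one another in these windows. Below, the 250 bases before the start are shown 5′ to 3′ on the gene's strand for the 5 genes with a match, which stands in capitals, Bcl2l15 from the ileal set and the others from the duodenal set. The GATA motif lay 77 and 24 bases before the Bcl2l15 start, 137 before that of 2210010C04Rik, 236 and 180 before that of Sfrp5 and 82 before that of Cpb1, and the CDX motif lay 11 bases before the start of Cel, where its reverse complement is written. A match is a run of letters and not evidence of a bound site.
Bcl2l15 (chr3:103832446-103832695, plus strand): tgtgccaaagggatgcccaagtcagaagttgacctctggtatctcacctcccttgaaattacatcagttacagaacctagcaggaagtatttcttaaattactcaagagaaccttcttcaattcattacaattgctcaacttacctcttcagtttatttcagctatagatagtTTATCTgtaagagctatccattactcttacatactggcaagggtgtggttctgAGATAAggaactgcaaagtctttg
2210010C04Rik (chr6:41035510-41035759, minus strand): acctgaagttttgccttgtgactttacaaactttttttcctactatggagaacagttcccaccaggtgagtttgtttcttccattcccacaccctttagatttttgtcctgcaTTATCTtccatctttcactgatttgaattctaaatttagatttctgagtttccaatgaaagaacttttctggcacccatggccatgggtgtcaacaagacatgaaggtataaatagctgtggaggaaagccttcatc
Cel (chr2:28563404-28563653, minus strand): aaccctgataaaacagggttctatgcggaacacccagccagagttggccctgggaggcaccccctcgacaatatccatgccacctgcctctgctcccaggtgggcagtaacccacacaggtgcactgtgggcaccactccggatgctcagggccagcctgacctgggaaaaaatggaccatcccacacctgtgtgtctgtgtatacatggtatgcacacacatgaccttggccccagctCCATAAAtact
Sfrp5 (chr19:42202253-42202502, minus strand): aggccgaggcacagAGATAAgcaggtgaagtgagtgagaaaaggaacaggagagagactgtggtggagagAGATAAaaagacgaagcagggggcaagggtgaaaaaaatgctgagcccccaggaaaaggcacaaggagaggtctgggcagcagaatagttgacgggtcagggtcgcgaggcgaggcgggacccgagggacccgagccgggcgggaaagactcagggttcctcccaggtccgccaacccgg
Cpb1 (chr3:20275734-20275983, minus strand): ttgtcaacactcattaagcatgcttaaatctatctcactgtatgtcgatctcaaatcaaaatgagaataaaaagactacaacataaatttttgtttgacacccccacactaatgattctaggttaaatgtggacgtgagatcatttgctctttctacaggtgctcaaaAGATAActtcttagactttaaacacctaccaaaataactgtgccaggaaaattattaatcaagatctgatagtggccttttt

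Genes that set position along the gut differed in both directions. Of 20 tested patterning transcription factors other than Pdx1, 10 were higher in the duodenum against 2 in the ileum. The shares over all tested genes were 24.0% and 19.4%. The median log2 was -0.43. Onecut2, a homeobox gene of duodenal epithelium, stood at 329 and 303 CPM in the duodenum and 7.58 and 7.1 CPM in the ileum (log2 -5.43 ± 1.09, adjusted p = 2.18e-04). Gata4, which maintains jejunal and duodenal identity, stood at 118 and 137 CPM in the duodenum and 34.8 and 34.2 CPM in the ileum (log2 -1.89 ± 0.38, adjusted p = 1.55e-04). Foxa2, a forkhead factor, stood at 3.62 and 5.28 CPM in the duodenum and 1.43 and 1.39 CPM in the ileum (log2 -1.65 ± 0.32, adjusted p = 8.29e-05). The samples of the regions lay apart for each of these genes, as they did at 73.4% of all tested genes. The ileal count was 4 with RLE scaling, 5 with DESeq2 or the mean count filter, 4 with the 4 samples alone, and 1 without duodenum sample 2 or ileum sample 2. In the ileum, Nkx2-3, a factor of gut mesenchyme, was higher at 1.6 and 1.46 CPM in the duodenum and 12.1 and 7.62 CPM in the ileum (log2 2.69 ± 0.39, adjusted p = 1.74e-06). Cdx2, the general intestinal homeobox factor, did not pass the test, at 119.5 and 139.9 CPM in the duodenum and 101 and 116 CPM in the ileum (log2 -0.26 ± 0.16, adjusted p = 0.203).

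Of 39 Hox genes, which specify position along the body axis, 25 passed the filter on low counts. Of these, 15 were higher in the ileum and 3 in the duodenum, beside 19.4% and 24.0% of all tested genes. The median log2 was 1.9, and 1.59 without duodenum sample 2 or 2.15 without ileum sample 2. Hoxd3 had 107 ileal and no duodenal counts, which makes it at least 51.3-fold higher. Hoxc8 stood at 0.0533 and 0.0256 CPM in the duodenum and 8.55 and 4.21 CPM in the ileum, a 156-fold ratio with a counting interval from 52.8 to 759. Hoxd4 measured 0.0266 and 0.103 CPM in the duodenum and 3.16 and 2.89 CPM in the ileum (log2 5.46 ± 1.24, adjusted p = 5.94e-04), and Hoxc6 measured 0.0799 and 0 CPM in the duodenum and 2.15 and 1.07 CPM in the ileum. Without either duodenum sample, Hoxd4 differed by 4.83 or 6.62. All 4 come from the HOXC and HOXD clusters. The opposite direction was seen for Hoxa9, at 2.08 and 1.39 CPM in the duodenum and 0.0843 and 0.162 CPM in the ileum (log2 -3.74 ± 0.97, adjusted p = 0.00203). The duodenal count was 1 with the mean count filter, with the 4 samples alone or without ileum sample 2. Levels were low throughout, with the 39 genes summing to 22.4 and 18 CPM in the duodenum and 60.9 and 51.4 CPM in the ileum. The 15 fibroblast matrix genes, described below, summed to 69.2 and 44.9 CPM in the duodenum and 1105 and 506 CPM in the ileum, and their part in the Hox differences was not tested.

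**Figure D3:**
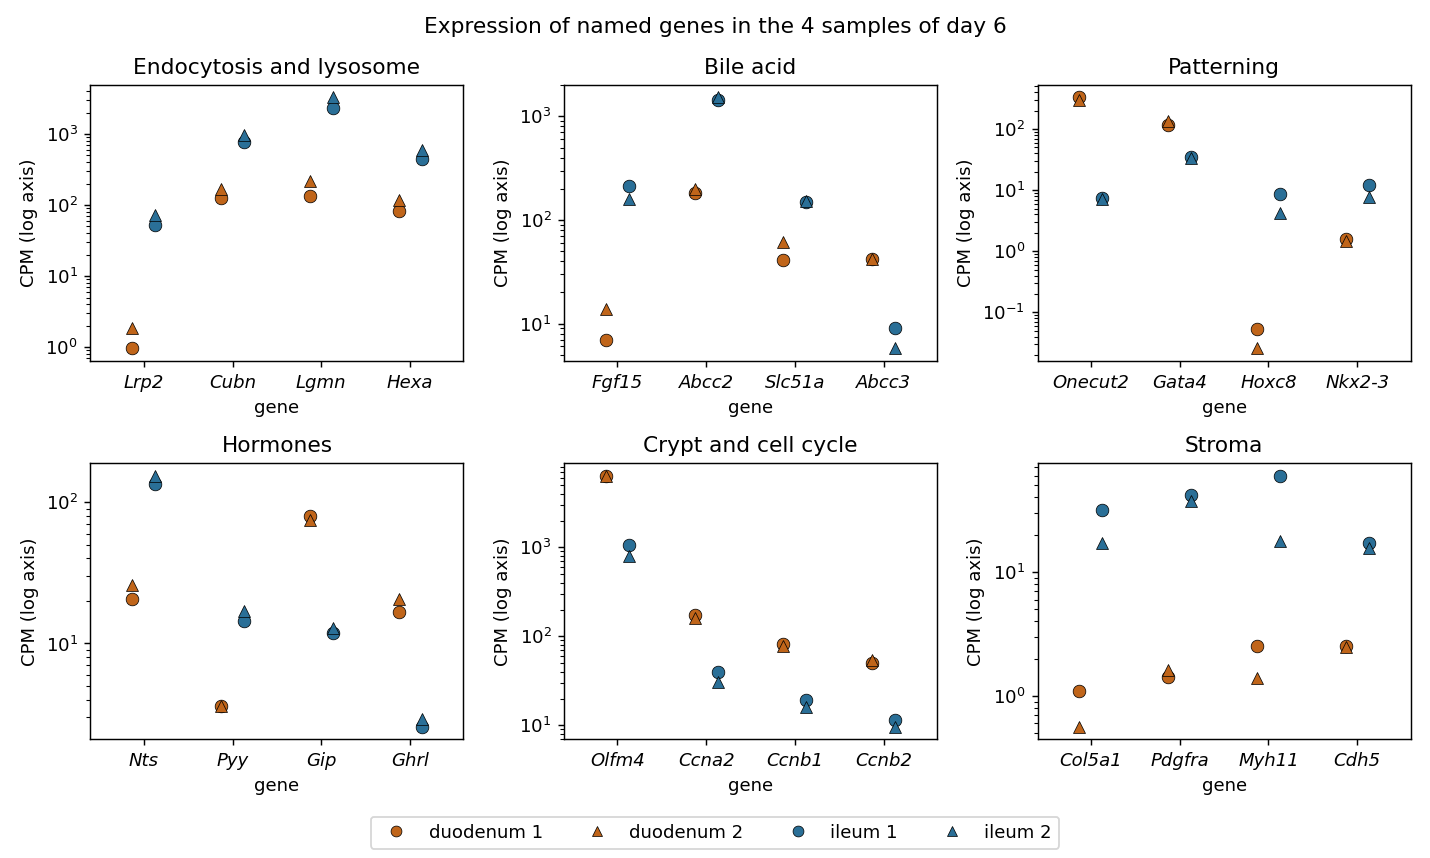
CPM on a log axis of 24 genes in the 4 samples of day 6, by gene group, with duodenum in orange, ileum in blue, circles for sample 1 and triangles for sample 2. All 24 are called genes, and the regions lie apart for each of them, as at 73.4% of all tested genes. The 2 ileum samples differ most for Myh11, at 59.8 and 17.6 CPM.

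Bile acid genes were mostly higher in the ileum, with 5 of 8 tested members other than Fabp6 higher there, 1 higher in the duodenum and a median log2 of 1.21. The shares over all tested genes were 19.4% ileal and 24.0% duodenal. The hormone gene Fgf15, which ileal enterocytes secrete in response to bile acids, stood at 7 and 13.7 CPM in the duodenum and 214 and 159 CPM in the ileum (log2 4.17 ± 0.86, adjusted p = 2.73e-04). Abcc2, an apical exporter of conjugates, stood at 180.4 and 198 CPM in the duodenum and 1434 and 1523 CPM in the ileum (log2 2.96 ± 0.32, adjusted p = 2.27e-08). Slc51a, a subunit of the basolateral bile acid exporter, stood at 40.8 and 61.6 CPM in the duodenum and 149 and 154 CPM in the ileum (log2 1.56 ± 0.23, adjusted p = 2.94e-06). All 3 had both ileum samples above both duodenum samples, and the regions did not overlap at 73.4% of all tested genes. The basolateral exporter Abcc3 went the other way, at 42.3 and 41.6 CPM in the duodenum and 9.06 and 5.74 CPM in the ileum (log2 -2.51 ± 0.34, adjusted p = 8.12e-07). Fabp6, given without a test, was at 0 and 0 CPM in the duodenum and 3.5 and 2.27 CPM in the ileum on the scale of the 40 samples fitted. Slc10a2, the apical uptake transporter of bile acids, was named after its values were seen and did not pass, at 0.426 and 0.256 CPM in the duodenum and 0.506 and 1.23 CPM in the ileum (log2 1.39 ± 0.96, adjusted p = 0.257).

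Of 25 genes for endocytosis and lysosomal digestion in suckling enterocytes, 23 were higher in the ileum, none was higher in the duodenum and 2 did not pass, with a median log2 of 1.78. The shares over all tested genes were 19.4% ileal and 24.0% duodenal. Lrp2, the large scavenger receptor megalin, stood at 0.959 and 1.87 CPM in the duodenum and 53.1 and 72.1 CPM in the ileum (log2 5.46 ± 0.63, adjusted p = 1.51e-07). Its partner cubilin, Cubn, stood at 125 and 171 CPM in the duodenum and 767 and 966 CPM in the ileum (log2 2.55 ± 0.31, adjusted p = 1.75e-07). The lysosomal protease legumain, Lgmn, stood at 133 and 217 CPM in the duodenum and 2328 and 3268 CPM in the ileum (log2 4.00 ± 0.59, adjusted p = 3.58e-06), and the hexosaminidase subunit gene Hexa at 81.5 and 118 CPM in the duodenum and 448 and 589 CPM in the ileum (log2 2.38 ± 0.27, adjusted p = 7.49e-08). Summed over the list, levels were 3829 and 5587 CPM in the duodenum and 14270 and 17840 CPM in the ileum. The count of 23 was the same with each of the 4 samples left out. The genes that did not pass were Fcgrt, the neonatal receptor that carries maternal IgG across the epithelium, at 813 and 1312 CPM in the duodenum and 1333 and 1530 CPM in the ileum (log2 0.43 ± 0.31, adjusted p = 0.273), and Pllp, a gene of endosomal membranes, at 7.38 and 9.23 CPM in the duodenum and 5.86 and 7.85 CPM in the ileum (log2 -0.27 ± 0.17, adjusted p = 0.192).

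The list of brush border digestion genes differed mainly in its peptidases. Of 20 tested genes, 9 were higher in the ileum and 1 in the duodenum, beside 19.4% and 24.0% of all tested genes. Naaladl1, a membrane peptidase, stood at 31.2 and 53.3 CPM in the duodenum and 929.9 and 1174 CPM in the ileum (log2 4.64 ± 0.60, adjusted p = 8.07e-07). Enpep, glutamyl aminopeptidase, stood at 38.4 and 65.1 CPM in the duodenum and 509 and 609.8 CPM in the ileum (log2 3.44 ± 0.34, adjusted p = 9.44e-09). Cndp2, on the list but a dipeptidase of the cytosol, stood at 54.3 and 68.5 CPM in the duodenum and 316 and 387 CPM in the ileum (log2 2.52 ± 0.26, adjusted p = 1.39e-08). Mep1a, a subunit of the protease meprin, had a log2 difference of 1.81. The single duodenal gene was Treh, the disaccharidase trehalase, at 6.42 and 7.21 CPM in the duodenum and 1.26 and 0.875 CPM in the ileum (log2 -2.69 ± 0.57, adjusted p = 3.44e-04). Lct, the lactase that digests milk sugar, did not pass, at 668 and 914 CPM in the duodenum and 1015 and 1011 CPM in the ileum (log2 0.36 ± 0.58, adjusted p = 0.654). Nor did the aminopeptidase Anpep, at 760.5 and 928 CPM in the duodenum and 745 and 692 CPM in the ileum (log2 -0.23 ± 0.26, adjusted p = 0.499).

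Genes of fat absorption and chylomicrons numbered 7 higher in the ileum, 1 higher in the duodenum and 14 that did not pass, of 22. Of all tested genes, 19.4% were higher in the ileum and 24.0% in the duodenum. Slc27a4, a fatty acid transport protein, stood at 83.9 and 119 CPM in the duodenum and 254 and 293 CPM in the ileum (log2 1.43 ± 0.28, adjusted p = 1.17e-04), and Npc1l1, the cholesterol uptake transporter, at 103 and 155 CPM in the duodenum and 317 and 374 CPM in the ileum (log2 1.42 ± 0.35, adjusted p = 0.00134). Apoa1, an apolipoprotein of HDL, stood at 1140 and 1891 CPM in the duodenum and 3433 and 4031 CPM in the ileum (log2 1.3 ± 0.33, adjusted p = 0.00166), and lost its call without duodenum sample 1 (adjusted p = 0.0585). The most abundant member, Apoa4, did not pass (log2 0.45 ± 0.45, adjusted p = 0.449). The ileal count moved to 3 without duodenum sample 1, and to 11 with DESeq2, 12 with a mean count filter and 11 with the 4 samples fitted alone. Cholesterol synthesis and uptake had 2 members higher in each region of 24, among them, on the duodenal side, the synthesis enzyme Idi1 at 123 and 98.4 CPM in the duodenum and 44.8 and 44.8 CPM in the ileum (log2 -1.3 ± 0.25, adjusted p = 9e-05). These counts ranged from 0 to 6 in the ileum and from 1 to 3 in the duodenum over the alternatives, the fit of all 48 samples apart.

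Transporters differed gene by gene, beside 19.4% of all tested genes higher in the ileum and 24.0% in the duodenum. Mineral and vitamin genes had 7 of 17 higher in the ileum and 3 in the duodenum, and the ileal count was 3 without duodenum sample 1 and 4 without ileum sample 2. The duodenal count was 1 without ileum sample 2 and 5 with the 4 samples alone. The vitamin C transporter Slc23a1 was higher in the ileum, at 8.6 and 12.3 CPM in the duodenum and 75.7 and 89 CPM in the ileum (log2 2.98 ± 0.54, adjusted p = 6.24e-05). The calcium channel Trpv6 was higher in the duodenum, at 3.25 and 4.46 CPM in the duodenum and 0.169 and 0.0648 CPM in the ileum, as was the vitamin D receptor Vdr, at 124 and 114 CPM in the duodenum and 50.6 and 40.6 CPM in the ileum (log2 -1.39 ± 0.17, adjusted p = 1.91e-07). Without ileum sample 2, Trpv6 had an adjusted p of 0.0591. Among amino acid carriers, Slc6a14 stood at 0 and 0.0769 CPM in the duodenum and 3.96 and 12.8 CPM in the ileum, with 3 duodenal and 489 ileal counts, and Slc6a19, which carries neutral amino acids, at 121 and 158 CPM in the duodenum and 342 and 424 CPM in the ileum (log2 1.46 ± 0.27, adjusted p = 4.86e-05). Slc5a8, a carrier of short monocarboxylates, stood at 1.49 and 1.98 CPM in the duodenum and 41 and 76 CPM in the ileum (log2 5.07 ± 1.06, adjusted p = 3.18e-04). Guca2a, which encodes guanylin, a peptide that drives chloride secretion, stood at 22.5 and 29.2 CPM in the duodenum and 252 and 349 CPM in the ileum (log2 3.54 ± 0.37, adjusted p = 3.28e-08), while its receptor gene Gucy2c did not pass (log2 0.15 ± 0.18, adjusted p = 0.535). The chloride channel Cftr stood at 307 and 289 CPM in the duodenum and 89.6 and 76.6 CPM in the ileum (log2 -1.84 ± 0.22, adjusted p = 1.45e-07), and Slc12a2, the basolateral chloride importer, at 1281 and 1120 CPM in the duodenum and 309 and 268 CPM in the ileum (log2 -2.06 ± 0.26, adjusted p = 2.39e-07). Both were higher in the duodenum, and so was the water channel Aqp8 (log2 -2.87 ± 0.53, adjusted p = 6.1e-05). Among claudins, which seal or open the space between cells, 3 of 14 were higher in the ileum and 5 in the duodenum. The shares over all tested genes were 19.4% and 24.0%. Cldn8 stood at 2.34 and 4.44 CPM in the duodenum and 62.6 and 94.7 CPM in the ileum (log2 4.53 ± 0.49, adjusted p = 6.47e-08) and Cldn4 had 2.22, whereas the cation pore gene Cldn15 stood at 85.5 and 100.3 CPM in the duodenum and 27.2 and 22.6 CPM in the ileum (log2 -1.90 ± 0.32, adjusted p = 1.57e-05). The duodenal claudin count was 3 without duodenum sample 2 or without ileum sample 1.

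Arginine synthesis differed by step. Cps1 and Otc, which make citrulline in intestinal mitochondria, were higher in the duodenum, with Cps1 at 4760 and 4437 CPM in the duodenum and 2126 and 1987 CPM in the ileum (log2 -1.16 ± 0.22, adjusted p = 6.25e-05) and Otc at 114 and 134 CPM in the duodenum and 55.3 and 53.7 CPM in the ileum (log2 -1.18 ± 0.21, adjusted p = 2.19e-05). Ass1 and Asl, which turn citrulline into arginine, were higher in the ileum, with Ass1 at 91.3 and 131 CPM in the duodenum and 296 and 349 CPM in the ileum (log2 1.54 ± 0.31, adjusted p = 1.8e-04) and Asl at 27.7 and 34 CPM in the duodenum and 79.3 and 107 CPM in the ileum (log2 1.59 ± 0.20, adjusted p = 3.51e-07). The regions did not overlap for any of these 4 genes, as they did not at 73.4% of all tested genes. Of all tested genes, 24.0% were higher in the duodenum and 19.4% in the ileum. Arg2, a mitochondrial arginase, had 111 counts in the duodenum and 1 in the ileum, and its call was lost without ileum sample 2 (adjusted p = 0.0518). Over the list of ketogenesis, gluconeogenesis and arginine synthesis, 10 of 23 genes were higher in the duodenum and 4 in the ileum, and the ileal count was 2 without duodenum sample 1 or ileum sample 2.

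Of 27 cytochrome P450 and conjugation genes, 13 were higher in the duodenum and 5 in the ileum, beside 24.0% and 19.4% of all tested genes. The ileal share was near that of all tested genes, and the median log2 was -0.88. Cyp4a10, a fatty acid hydroxylase, stood at 14.8 and 24 CPM in the duodenum and 0.379 and 0.324 CPM in the ileum (log2 -5.78 ± 0.79, adjusted p = 1.55e-06). Cyp2c65 measured 30.6 and 42 CPM in the duodenum and 4.42 and 4.8 CPM in the ileum (log2 -2.97 ± 0.52, adjusted p = 3.62e-05), and Cyp2c66 and Cyp2d26 had log2 differences of -3.35 and -2.87. Members of the CYP2C and CYP2D clusters are similar in sequence, and model-based counts can be split between them. The ileal side was led by Cyp2u1, at 5.65 and 5.64 CPM in the duodenum and 20.6 and 19.3 CPM in the ileum (log2 1.82 ± 0.39, adjusted p = 3.77e-04), and its count was 2 without duodenum sample 1 or ileum sample 2. Cyp11a1, which begins steroid synthesis, belongs to the glucocorticoid list and was higher in the ileum, at 0.613 and 0.718 CPM in the duodenum and 7.96 and 14.5 CPM in the ileum (log2 4.07 ± 0.57, adjusted p = 1.19e-06).

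Hormone genes of enteroendocrine cells were mostly duodenal, with 9 of 15 tested genes higher there, 2 higher in the ileum (4 with the mean count filter or the 4 samples alone) and a median log2 of -1.84. The shares over all tested genes were 24.0% duodenal and 19.4% ileal. Gip, an incretin, stood at 79.9 and 74.8 CPM in the duodenum and 11.9 and 13 CPM in the ileum (log2 -2.63 ± 0.53, adjusted p = 2.05e-04). Cholecystokinin, Cck, stood at 29 and 34.4 CPM in the duodenum and 6.91 and 5.58 CPM in the ileum (log2 -2.35 ± 0.40, adjusted p = 2.41e-05), and ghrelin, Ghrl, at 16.8 and 20.5 CPM in the duodenum and 2.57 and 2.92 CPM in the ileum (log2 -2.76 ± 0.37, adjusted p = 6.34e-07). Tac1, which encodes substance P, had a log2 difference of -2.04. On the ileal side were neurotensin, Nts, at 20.5 and 25.8 CPM in the duodenum and 134 and 154 CPM in the ileum (log2 2.64 ± 0.51, adjusted p = 1.12e-04), and peptide YY, Pyy, at 3.62 and 3.62 CPM in the duodenum and 14.4 and 17 CPM in the ileum (log2 2.12 ± 0.46, adjusted p = 4.17e-04). Gcg, the source of GLP-1, missed the threshold, at 23.2 and 16.8 CPM in the duodenum and 29.96 and 28.1 CPM in the ileum (log2 0.54 ± 0.27, adjusted p = 0.102), and passed it with RLE scaling (adjusted p = 0.0481), DESeq2 (0.0426), the mean count filter (0.0252), the replicate block (0.0397) or the 4 samples alone (0.0232).

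Mucus genes of goblet cells split, with 3 of 15 higher in the ileum and 4 in the duodenum, shares close to those of all tested genes. Muc2, the main secreted mucin, stood at 202 and 142 CPM in the duodenum and 673 and 694 CPM in the ileum (log2 1.99 ± 0.38, adjusted p = 8.45e-05), and Fcgbp, which binds mucus, at 798 and 694 CPM in the duodenum and 1829 and 2105 CPM in the ileum (log2 1.40 ± 0.28, adjusted p = 1.36e-04). The membrane mucin gene Muc3 showed the widest gap, at 4.93 and 4.87 CPM in the duodenum and 93.2 and 99.9 CPM in the ileum (log2 4.30 ± 0.42, adjusted p = 1.09e-08). Zg16, a lectin of mucus, was duodenal, at 3.6 and 2.62 CPM in the duodenum and 0.253 and 0.227 CPM in the ileum (log2 -3.68 ± 0.84, adjusted p = 6.81e-04), and so was the kallikrein Klk1 (log2 -2.12 ± 0.31, adjusted p = 2.26e-06). Muc13, a membrane mucin, did not pass (log2 0.20 ± 0.21, adjusted p = 0.458). The Paneth cell genes Lyz1 and Ang4 were below 50 CPM in all 4 samples and did not pass, though Lyz1 did with the 4 samples alone (adjusted p = 0.0184). Reg3b, an antimicrobial lectin, stood at 1.3 and 1.08 CPM in the duodenum and 3.2 and 16.7 CPM in the ileum, and its call was lost without ileum sample 2 (adjusted p = 0.238).

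All 20 tested genes of crypt stem cells and the cell cycle were higher in the duodenum, with a median log2 of -1.94. Of all tested genes, 24.0% were higher there and 19.4% in the ileum. The stem cell marker Olfm4 stood at 6364 and 6330 CPM in the duodenum and 1057 and 805 CPM in the ileum (log2 -2.77 ± 0.29, adjusted p = 1.85e-08). Cyclin A2, Ccna2, stood at 173 and 160.2 CPM in the duodenum and 39.2 and 30.4 CPM in the ileum (log2 -2.26 ± 0.30, adjusted p = 6.42e-07), cyclin B1, Ccnb1, at 81.9 and 77.2 CPM in the duodenum and 19.4 and 16.1 CPM in the ileum (log2 -2.16 ± 0.31, adjusted p = 1.77e-06), and Ccnb2 had -2.31. Each of the 20 differed by more than 2-fold. Summed levels were 9475 and 9208 CPM in the duodenum and 1991 and 1554 CPM in the ileum. The count was 20 in every alternative except the fit of all 48 samples as labelled. General epithelial genes differed less. Of 10 such genes, in a list added after the values of other lists were seen, 3 were higher in the duodenum and none in the ileum. Among them Krt19 stood at 437 and 487 CPM in the duodenum and 155 and 134 CPM in the ileum (log2 -1.68 ± 0.19, adjusted p = 4.12e-08) and Krt8 at 798 and 974 CPM in the duodenum and 425 and 448 CPM in the ileum (log2 -1.02 ± 0.16, adjusted p = 7.4e-06), while Epcam did not pass. Cdh17 did not pass either, but was called higher in the ileum with the mean count filter (adjusted p = 0.0414) and with the 4 samples alone (0.0479). The remaining duodenal call, Cdh1, was lost with RLE scaling (adjusted p = 0.108), DESeq2 (0.0833) or the mean count filter (0.164). Cdh1 was also not called with no filter (0.13) or with day 4 samples added (0.124).

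Genes of the layers outside the epithelium went the opposite way, beside 19.4% of all tested genes higher in the ileum and 24.0% in the duodenum. All 15 fibroblast matrix genes were higher in the ileum, with a median log2 of 4.31, as were all 12 genes of endothelium and lymphatics, with a median of 2.38. Col5a1, a fibrillar collagen, stood at 1.09 and 0.564 CPM in the duodenum and 31.6 and 17.1 CPM in the ileum (log2 4.88 ± 0.59, adjusted p = 2.31e-07), and Col6a2, a microfibrillar collagen, at 1.84 and 1.21 CPM in the duodenum and 49.4 and 28.7 CPM in the ileum (log2 4.68 ± 0.54, adjusted p = 1.28e-07). Pdgfra, a receptor of fibroblasts, stood at 1.41 and 1.62 CPM in the duodenum and 42 and 37.3 CPM in the ileum (log2 4.71 ± 0.45, adjusted p = 6.83e-09), and elastin, Eln, at 1.47 and 0.462 CPM in the duodenum and 37.7 and 12 CPM in the ileum (log2 4.69 ± 0.77, adjusted p = 1.67e-05). Ileum sample 1 was above ileum sample 2 for all 4, and both were above the duodenum. Over all tested genes, the regions did not overlap at 73.4%. Cdh5, the cadherin of endothelium, stood at 2.53 and 2.49 CPM in the duodenum and 17.1 and 15.6 CPM in the ileum (log2 2.70 ± 0.48, adjusted p = 3.3e-05), with close values within each region. Flt4 and Pdpn, known from lymphatic vessels, had log2 differences of 3.15 and 3.97. Of 11 smooth muscle genes, 10 were higher in the ileum. Myh11, smooth muscle myosin, stood at 2.53 and 1.39 CPM in the duodenum and 59.8 and 17.6 CPM in the ileum (log2 4.30 ± 0.84, adjusted p = 1.56e-04), and desmin, Des, at 0.959 and 0.821 CPM in the duodenum and 13.8 and 5.12 CPM in the ileum (log2 3.40 ± 0.63, adjusted p = 6.22e-05). Without ileum sample 1, 6 of the 11 were called, and the log2 differences of Myh11, Des, Eln and Upk3b were 3.17, 2.52, 3.64 and 3.60, all still called. Mesothelial genes moved likewise, with Upk3b at 0.479 and 0.333 CPM in the duodenum and 16.3 and 4.96 CPM in the ileum (log2 4.69 ± 0.72, adjusted p = 5.45e-06) and Msln at 1.09 and 0.59 CPM in the duodenum and 14.3 and 9.21 CPM in the ileum (log2 3.80 ± 0.66, adjusted p = 2.53e-05), apart from Krt19, which epithelium also makes. Of 15 genes of enteric neurons and glia, 8 were higher in the ileum. S100b, a glial marker, was higher in the duodenum, at 12.7 and 18.8 CPM in the duodenum and 1.64 and 1.95 CPM in the ileum (log2 -3.12 ± 0.46, adjusted p = 2.27e-06). The labels call every sample whole thickness, yet Myh11 was at most 2.53 CPM and Col5a1 at most 1.09 CPM in the duodenum. How much of each wall layer a piece held was not tested.

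Signals between epithelium and mesenchyme were mostly higher in the ileum as well. Of 36 tested ligands, receptors and targets, 19 were higher in the ileum and 3 in the duodenum, beside 19.4% and 24.0% of all tested genes. The hedgehog targets Gli1 and Hhip stood at 0.24 and 0.103 CPM in the duodenum and 7.63 and 3.96 CPM in the ileum (log2 5.05 ± 0.67, adjusted p = 5.82e-07) and 0.186 and 0.179 CPM in the duodenum and 8.93 and 7.91 CPM in the ileum (log2 5.50 ± 0.69, adjusted p = 3.17e-07). Bmp4, a ligand of villus mesenchyme, stood at 0.692 and 0.538 CPM in the duodenum and 12.4 and 12.5 CPM in the ileum (log2 4.33 ± 0.69, adjusted p = 8.12e-06). In the duodenum, the WNT ligands Wnt3, made by Paneth and other epithelial cells, and Wnt9b were higher, at 9.8 and 10.03 CPM in the duodenum and 4.21 and 3.57 CPM in the ileum (log2 -1.35 ± 0.27, adjusted p = 1.07e-04) and 3.49 and 3.21 CPM in the duodenum and 0.464 and 0.292 CPM in the ileum (log2 -3.15 ± 0.46, adjusted p = 2.36e-06). The ileal count was 12 without ileum sample 1, the sample with the higher fibroblast sum of 1105 CPM, and the part of the stromal levels in these differences was not tested.

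Immune genes differed by list, beside 19.4% of all tested genes higher in the ileum and 24.0% in the duodenum. Of 18 genes of MHC class II and the interferon response, 13 were higher in the ileum and none in the duodenum. H2-Aa, a class II chain, stood at 10.5 and 4.15 CPM in the duodenum and 22.3 and 26.6 CPM in the ileum (log2 1.75 ± 0.40, adjusted p = 7.21e-04), and Cd74, the class II chaperone, at 23.8 and 6.46 CPM in the duodenum and 46.6 and 54.1 CPM in the ileum. Usp18, an interferon-induced protease, stood at 2.72 and 2.98 CPM in the duodenum and 7.88 and 8.79 CPM in the ileum (log2 1.55 ± 0.26, adjusted p = 1.63e-05). The count was 8 without duodenum sample 2 or ileum sample 2, and Cd74 lost its call without duodenum sample 2 (adjusted p = 0.0986). H2-Aa had a log2 difference of 2.56 without duodenum sample 1. Macrophage genes had 8 of 12 higher in the ileum, led by Cd68 at 1.36 and 1.49 CPM in the duodenum and 6.78 and 5.64 CPM in the ileum (log2 2.12 ± 0.36, adjusted p = 1.83e-05), with Csf1r, the receptor for the macrophage growth factor, at 29.9 and 34.1 CPM in the duodenum and 109 and 127 CPM in the ileum (log2 1.88 ± 0.22, adjusted p = 7.17e-08), and 3 without duodenum sample 2. B cell genes were uneven between duodenum samples. Cd79a, part of the B cell receptor, stood at 2.16 and 0 CPM in the duodenum and 4.17 and 6.81 CPM in the ileum, and Ighm, the heavy chain of IgM, at 9.11 and 1.26 CPM in the duodenum and 16.9 and 26.5 CPM in the ileum. Of 13 B cell and Peyer patch genes, 7 were higher in the ileum, but 1 was without duodenum sample 2 or without ileum sample 2, 2 with the 4 samples alone and 3 with no filter. Neither Cd79a nor Ighm kept its call in those first 3 fits (adjusted p from 0.0798 to 0.165). In the duodenum, Nlrp6, an inflammasome sensor of epithelium, was higher, at 220.5 and 250.2 CPM in the duodenum and 80.01 and 73.9 CPM in the ileum (log2 -1.61 ± 0.21, adjusted p = 3.73e-07), and Trac, the constant region of the T cell receptor alpha chain, stood at 9.43 and 11.5 CPM in the duodenum and 2.61 and 2.82 CPM in the ileum (log2 -1.94 ± 0.36, adjusted p = 6.17e-05). T cell genes as a list had 2 of 14 higher in the ileum and 1 in the duodenum, and the ileal count was 6 without duodenum sample 1, 0 without duodenum sample 2, and 1 without ileum sample 1 or with the 4 samples alone, where the duodenal count was 2. Toll-like receptor and sensing genes had 6 of 26 higher in the ileum and 4 in the duodenum, against 19.4% and 24.0% of all tested genes. Immediate early and stress genes, which also respond to how tissue is handled, had 9 of 12 higher in the ileum and 1 in the duodenum, with a median log2 of 1.61, and their part in the other results was not tested. None of 8 red blood cell genes was called, though 5 were higher in the duodenum with the 4 samples alone.

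Markers of neighbouring organs differed too, beside 24.0% of all tested genes higher in the duodenum and 19.4% in the ileum. Of 18 tested pancreatic acinar genes, 14 were higher in the duodenum and none in the ileum, and the median log2 was -5.65, or -4.57 with genes at 0 in the ileum set to their bound. Their sum was 359.7 and 277 CPM in the duodenum and 35.9 and 37 CPM in the ileum, and the acinar transcription factor Ptf1a was at 0 counts in both regions. The count of 14 was 8 without duodenum sample 1, 8 without ileum sample 1 and 4 without ileum sample 2. Of 9 tested genes of stomach and Brunner glands, 5 were higher in the duodenum, mostly through sample 2. Pgc stood at 1.04 and 23 CPM in the duodenum and 0.0421 and 0.0324 CPM in the ileum, Tff2 at 7.27 and 32 CPM in the duodenum and 0.0843 and 0.0973 CPM in the ileum and Gkn3, a gastrokine, at 24.8 and 59.8 CPM in the duodenum and 0.758 and 0.681 CPM in the ileum, and Tff1, a gastric trefoil peptide that did not pass, was at 0 and 11.4 CPM in the duodenum and 0 and 0 CPM in the ileum. Without duodenum sample 2 the count was 2 and Pgc was no longer called (adjusted p = 0.0946). It was 3 without ileum sample 1 or 2. Of 7 liver genes, 4 were higher in the ileum, among them Afp, fetal serum protein, at 22.6 and 23.8 CPM in the duodenum and 176 and 322 CPM in the ileum (log2 3.43 ± 0.62, adjusted p = 6.13e-05). Whether tissue of another organ was carried in the pieces was not tested.

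The regional difference at day 6 was then set against those at day 8 and day 2 by the interaction of region and age. At day 8, 46.1% of tested genes were called between the regions (19.9% ileal, 26.3% duodenal), and at day 2, 13.4% (7.62% ileal, 5.81% duodenal). Of the 4197 genes higher in the ileum at day 6, 69.5% were also called so at day 8, which is 67.9% of the day 8 set, and of the 5179 higher in the duodenum, 83.2% were, which is 75.9% of the day 8 set. At day 2 the shared share was 22% of the day 6 set and 56.1% of the day 2 set for the ileum, and 14.3% and 59.1% for the duodenum. Called the opposite way at day 8 were 2 of the genes ileal at day 6 and none of the duodenal ones, and at day 2 these numbers were 94 and 75. The ages come from different mice but share one estimate of spread.

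Against day 8, 1 gene of 21617 (0.00463%) was called by edgeR, and 2550 had an unadjusted p under 0.05. It is Gm26540, a gene model with no known function given in the tables, at 0 in both duodenum samples and 2.61 and 1.85 CPM in the ileum at day 6, against means of 1.68 CPM in the duodenum and 1.52 CPM in the ileum at day 8 (adjusted p = 0.00738). DESeq2 called 73 genes in this contrast, and edgeR with the day 6 and day 8 samples alone called 87.

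Against day 2, 6015 genes (27.8%) were called. The ileum-minus-duodenum log2 difference was more positive at day 6 for 2473 (11.4%) and more negative for 3542 (16.4%). A more negative value includes a duodenal excess that grew, as for Dmbt1 below. With RLE scaling the split was 2899 and 2643. The median interaction over all genes was -0.14 on the log2 scale with TMM scaling and -0.01 with RLE. Among genes with a mean of at least 10 CPM in a group compared, Rpl36a-ps2, Fendrr, Fndc1, the collagen gene Col6a4 and Rarres1 had the 5 largest fitted positive interactions. Fendrr had a regional log2 difference of -0.72 at day 2 and 6.04 at day 6 (interaction 6.75 ± 0.71, adjusted p = 1.07e-06), and Col6a4 had -0.60 and 5.10 (interaction 5.70 ± 0.68, adjusted p = 5.02e-06). The largest negative interactions were in AA792892 and in Zfp618, a zinc finger gene, followed by Dmbt1, a scavenger receptor of mucosal surfaces, the kinase gene Rps6ka6 and the endothelial lipase gene Lipg. Dmbt1 stood at 1767 and 1631 CPM in the duodenum and 46.5 and 34.3 CPM in the ileum at day 6, a log2 difference of -5.39 against -2.70 at day 2 (interaction -2.69 ± 0.78, adjusted p = 0.0105). Zfp618 went from higher in the ileum at day 2, at 1.80, to higher in the duodenum at day 6, at -1.54 (interaction -3.34 ± 0.66, adjusted p = 5.35e-04). The day 6 call of Zfp618 was lost with day 4 samples added (adjusted p = 0.132) and without duodenum sample 2 (0.15), ileum sample 1 (0.0705) or ileum sample 2 (0.0906).

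By list, the stromal difference was present at day 6 and day 8 and not detected at day 2. None of 15 fibroblast matrix genes was called at day 2 (median log2 -0.31), 15 were called higher in the ileum at day 6 (4.31) and 15 at day 8 (2.79). Of these 15, 14 had a called interaction between day 6 and day 2. Crypt and cell cycle genes higher in the duodenum numbered 4 of 20 at day 2, 20 at day 6 and 20 at day 8, with medians of -0.45, -1.94 and -1.3, and 19 had a called interaction with day 2. Endocytosis and lysosome genes were higher in the ileum at each age, 19 of 25 at day 2, 23 at day 6 and 21 at day 8, with medians of 0.80, 1.78 and 1.00, and 18 had a called interaction with day 2. MHC class II and interferon genes higher in the ileum numbered 0 of 18, 13 and 7. Fat absorption genes higher in the ileum numbered 0 of 22 at day 2, 7 at day 6 and 3 at day 8, and higher in the duodenum 6, 1 and 5. Their medians were -0.42, 0.45 and -0.28, and 12 had a called interaction with day 2. No member of any list was called between day 6 and day 8 by edgeR.

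**Figure D4:**
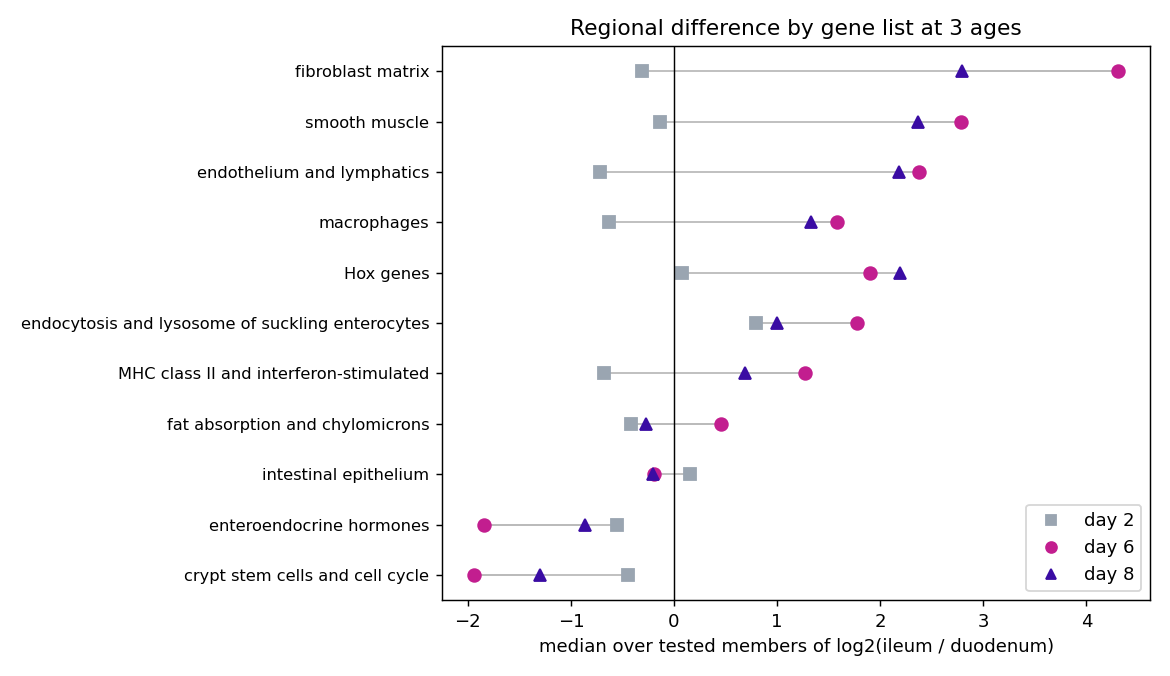
Median over the tested members of 11 gene lists of the log2 ratio of ileum to duodenum at day 2 (squares), day 6 (circles) and day 8 (triangles), each from its own samples. The fibroblast matrix median was -0.31, 4.31 and 2.79, and the crypt and cell cycle median -0.45, -1.94 and -1.3.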

How the data were processed

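The authors deposited whole-number estimated counts per gene, in a table named for tximport. The submitters' processing notes list STAR 2.6.1d, Salmon 0.14.2, DESeq2 1.30.1 and the build mm10 with no role for each, and the annotation release is not given in the sources used here. The deposited normalized tables, a signal equal to the count over 1 factor per column, gave only gene symbols (51106 of 54532 genes) and the list of samples kept. Tests used edgeR 4.0.16 in R 4.3.3 (TMM scaling, filterByExpr, robust quasi-likelihood fit with 1 mean per group) on 40 samples in 14 groups, without the 6 day 4 samples and the 2 day 6 samples numbered 3. Adjusted p-values (Benjamini-Hochberg) cover 21617 genes, with calls under 0.05. SEs are the log2 difference over the square root of F. The fit was tested on simulated data. Alternatives were RLE scaling, no filter, a mean count of at least 10, DESeq2 1.42.0, other sample sets, a replicate block and each day 6 sample left out. Day 6 totals ran from 19123074 to 40755872 counts, and n is 2 per region. The named genes were the 12 largest called differences per direction (mean of at least 10 CPM, regions not overlapping), up to 4 called per list and direction (mean of at least 1 CPM) with up to 2 uncalled, and the 5 largest interactions per direction. The samples, members and lists were chosen with earlier results of these data known. Some genes are not reported here.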

Additional observations from a re-analysis of the deposited data

Results flagged for a closer look

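These results differ between ages by a test of the difference itself. For Gm26540 the ileum-minus-duodenum log2 difference was 9.32 larger at day 6 than at day 8, with 0 counts in both duodenum samples of day 6, so that the fitted value depends on the prior count and is no bound. Between day 6 and day 2, 6015 genes had a called interaction. Among the named ones, the log2 interaction was 12.2 for Rpl36a-ps2, again a fitted value and no bound since its duodenum samples of day 6 hold 0 counts, 6.75 for Fendrr, 6.62 for Fndc1, 5.7 for Col6a4 and 5.68 for Rarres1, which has 1 duodenal count at day 6. It was -3.54 for AA792892, -3.34 for Zfp618, -2.69 for Dmbt1, -2.46 for Rps6ka6 and -2.39 for Lipg. The value for Fndc1 rests mostly on ileum sample 1. The groups of day 6 hold 2 samples each and those of day 2 and day 8 hold 3, too few for a search for single outlying samples.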

How the results depend on the processing

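With all 48 samples as labelled, the count of genes called between the regions was 0, as were the counts in each direction and over 2-fold; the difference from day 8 then had 0 calls and that from day 2 had 1, and Lct, not called in either fit, turned to -0.053. In the other alternatives the regional count stayed within 1.5 times of 9376, between 7037 and 9558. Against day 8, the 1 call became 0 with no filter or with day 4 added, 73 with DESeq2 and 87 with the day 6 and day 8 samples alone, and 0 to 1 with a sample left out. Against day 2, adding day 4 gave 3633. The causes were not tested. Tff1 ran from -11.58 to 0 with a sample left out, the 0 without duodenum sample 2, which held its only counts. Of 143 called genes considered for the text, 115 kept the call in all 11 alternatives other than the fit of all 48. Fits without 1 sample leave a lone sample, which is assumed to vary like other groups.

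Sample numbers are shared between regions, but the labels do not tie them to an animal. Over 20 pairs the correlation of deviations was 0.0812 on average, from -0.0939 to 0.455, with 8 over 0.1 and 0.0181 at day 6, so the numbers were not taken to pair the samples. Whether same-numbered samples share an animal is not settled by this. With the replicate block the regional count was 9558, the day 8 difference had 2 calls and the day 2 difference 6399. With the block, Gcg (adjusted p = 0.0397) and Tff1 (0.000441) were also called.

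Each region has 2 samples at day 6, which limits precision. Genes at a few counts, such as the acinar genes in the ileum and many Hox genes in the duodenum, have ratios that counting error alone moves widely. Piece-to-piece differences in wall layers cannot be told apart from regional differences.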
